A study of Homo sapiens with 12 samples.

Results

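Dabrafenib and trametinib were added to entinostat in SK-MEL-2, an established human melanoma cell line, and the cells that had all 3 agents (DTE) were compared with cells that had entinostat alone (E). The comparison used 6 of the 12 arrays of the series, the 3 titled DTE against the 3 titled E, and covered 14582 genes. Both arms received 1 µM entinostat for 24 hours, and the DTE arm received 100 nM dabrafenib and 10 nM trametinib besides. The other 6 arrays, 3 with vehicle (DMSO) and 3 with dabrafenib plus trametinib at those doses but no entinostat (DT), showed what the pair did in cells without entinostat. All samples came from 1 cell line in culture, at 1 time and 1 dose of each agent. The replicates are biological by the titles but technical by the design text, so each p-value reflects only how far these arrays spread, which may be technical.

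Dabrafenib blocks RAF kinases and trametinib blocks the MEK kinases below them, which carry signals from RAS to the kinase ERK. Both drugs were always given together here, so what either did alone in these cells was not tested. ERK drives transcription of its own inhibitors, of early transcription factors and of the cyclins that start the cell cycle, and melanomas commonly depend on it for growth. Entinostat inhibits class I histone deacetylases, enzymes that remove acetyl groups from histones, and it is present on both sides of this comparison.

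The DTE arrays were dimmer as a whole than the E arrays. The geometric mean intensity of the genes above the median gene was 124, 145 and 161 on the E arrays and 61.2, 66.7 and 68.5 on the DTE arrays. No DTE array reached any E array, and the difference was -1.12 on the log2 scale (two-sided exact permutation p = 0.1, the smallest that 3 arrays against 3 allow). When genes were sorted by brightness into 10 bins, the median difference went from -0.06 in the dimmest bin to -1.15 in bins 8 and 9, and over all genes it was -0.82. The sources used here do not give the scaling between arrays, and in bulk RNA fewer cells and less RNA per cell cannot be told apart. Whether labelling, hybridization or processing of the arrays had a part in the dimming was not tested. Each difference is therefore given in deposited values, as log2 of DTE over E ± the fit's standard error, and then after quantile normalization, which gives all arrays the same distribution and so shows a gene relative to the others (median 0.01). A gene is said to have risen or fallen where limma's test passed an adjusted p of 0.05 in that direction in both scalings.

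**Figure D1:**
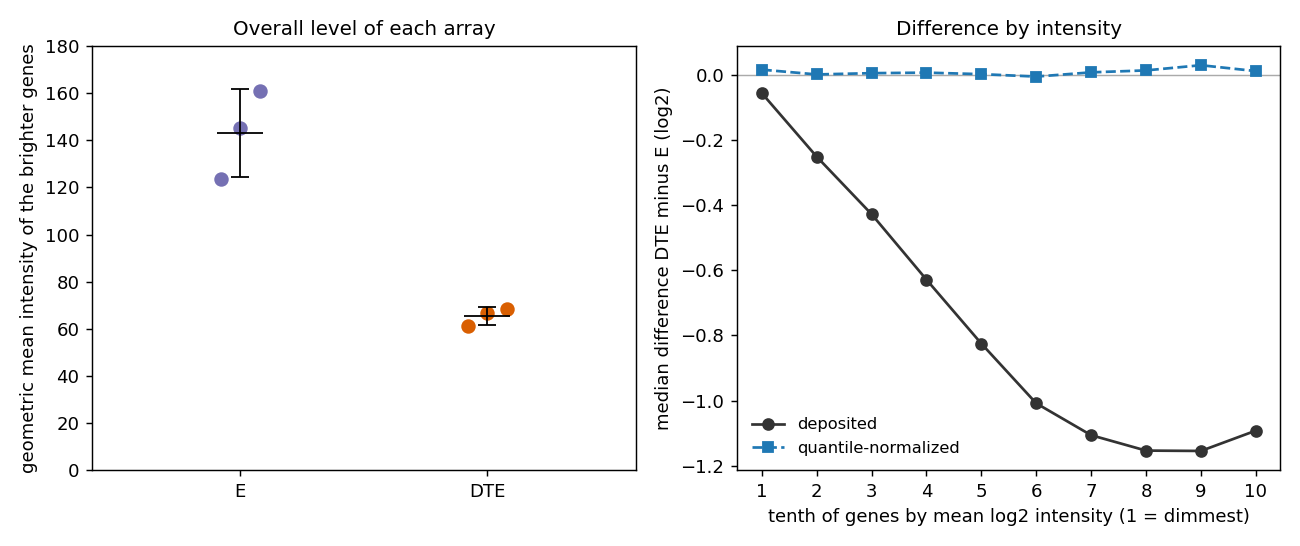
Left, geometric mean intensity of the genes above the median gene on each E and DTE array, with mean and SD (n = 3). Right, median log2 difference of DTE over E in 10 bins of genes by brightness, which goes from -0.06 to -1.15 in deposited values and stays near 0 after quantile normalization.

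By this double rule 1457 of 14582 genes fell (9.99%) and 32 rose (0.219%). Of these, 99 fell and 2 rose at least 2-fold in both scalings. Deposited values alone gave 11453 lower genes (78.5%) and 36 higher ones (0.247%). Quantile-normalized values alone gave 1457 lower (9.99%) and 1466 higher (10.1%). Lower genes thus made up 99.69% of the calls in the first and 49.85% in the second, and 1107 genes were called in opposite directions. In deposited values the arrays of both arms did not overlap for 11524 genes that were lower in DTE (79.0%) and for 76 that were higher (0.521%), so a lack of overlap on the lower side is the common case. Of the genes that fell, 1371 encode proteins and 1363 were above the estimated background in both arms.

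The 2 largest falls among the named genes, those of UCN2 and SPRY4, were in genes listed here as dependent on ERK. The lists were written with earlier results of these data known, so membership is not independent of these values. UCN2, which encodes the peptide hormone urocortin 2, read 1076, 1597 and 1635 on the E arrays and 42.3, 36.0 and 29.7 on the DTE arrays. The arms lay far apart, and the fall was 39.6-fold (-5.31 ± 0.17, quantile -4.31, adjusted p = 4.5e-16 and 2.6e-08). In cells without entinostat the same pair took its mean from 1622 to 81.8 (-4.30 ± 0.17, quantile -4.00).

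The UCN2 promoter is shown because it holds a match to TGANTCA, the AP-1 motif that dimers of the FOS and JUN families bind and that reads alike on both strands. The stretch is from RefSeq (GRCh38.p14, chr3:48563752-48564031, minus strand) and runs from 250 bases before to 30 bases after the annotated start, with the match in capitals at position -102.
UCN2: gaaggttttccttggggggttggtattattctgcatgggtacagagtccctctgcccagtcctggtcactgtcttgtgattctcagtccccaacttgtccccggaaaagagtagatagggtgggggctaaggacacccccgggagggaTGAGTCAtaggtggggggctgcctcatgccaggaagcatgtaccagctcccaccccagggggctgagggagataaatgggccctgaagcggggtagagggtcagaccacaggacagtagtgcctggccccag
A match stood in 4 of 17 promoters found (23.5%) for the list of other ERK-dependent transcripts and in 5.89% of the 10562 promoters found for all genes tested, in windows of 300 bases. It stood in 0 of 10 promoters of feedback inhibitors and in 1 of 15 of the transcription factors that ERK drives. Of the promoters found for genes that fell, 4.73% of 1185 held it, and for genes that rose 3 of 19. The shares describe the lists and not the treatment. A match is a run of letters and does not show that a factor binds there.

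Feedback inhibitors of the pathway came next. SPRY4, which restrains receptor tyrosine kinase signalling, read 455, 676 and 719 in E and 37.0, 32.3 and 32.2 in DTE (-4.16 ± 0.17, quantile -3.12, adjusted p = 2.9e-14 and 2.6e-08). Its relative SPRY2 read 340.1, 443 and 509 in E and 83.9, 90.3 and 91.0 in DTE (-2.27 ± 0.15, quantile -1.10). Both stood well apart between the arms, and SPRY4 was also low in DT, at 58.1, 45.6 and 61.1.

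DUSP6, the phosphatase that inactivates ERK in the cytoplasm, read 434, 482 and 539.5 in E and 59.0, 64.9 and 57.3 in DTE (-3.00 ± 0.13, quantile -1.86, adjusted p = 8.8e-14 and 6.1e-08). Without entinostat its mean went from 404 to 186 (-1.12 ± 0.13, quantile -0.78). The fall was therefore deeper on top of entinostat, by an interaction of -1.89 ± 0.19, quantile -1.08 (adjusted p = 5.9e-07 and 4.0e-04), where the interaction is the difference of DTE and E minus that of DT and DMSO. The nuclear ERK phosphatase DUSP4 read 207, 306 and 325 in E and 34.5, 35.4 and 32.6 in DTE (-3.01 ± 0.16, quantile -1.96), and its interaction passed in neither scaling (adjusted p = 0.25 and 0.21). DUSP5, a further nuclear ERK phosphatase, read 54.0, 60.1 and 64.5 in E and was not well above the estimated background in DTE (at least 5.15-fold lower, and at least 3.26-fold after quantile normalization). In all, 7 of 12 measured feedback inhibitors fell, beside 9.99% of all genes, with a median of -1.56 (quantile -0.50). DUSP1, DUSP2, DUSP10 and IL17RD did not pass after quantile normalization, and PEA15 was higher there (-0.72 ± 0.13, quantile 0.31).

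Of the transcription factors that ERK drives, 10 of 22 fell, beside 9.99% of all genes. FOSL1, an AP-1 subunit that ERK stabilises, read 209, 247 and 233 in E and 34.2, 44.2 and 36.9 in DTE (-2.59 ± 0.14, quantile -1.50, adjusted p = 2.6e-12 and 2.9e-06). It fell further than without entinostat (interaction -1.41 ± 0.19, quantile -0.70, adjusted p = 1.8e-05 and 0.028). The PEA3 members of the ETS family differed in size, with ETV4 (-2.49 ± 0.15, quantile -1.37) and ETV5 (-2.48 ± 0.15, quantile -1.35) well below ETV1 (-1.52 ± 0.15, quantile -0.35). The interaction of ETV4 was above 0 (0.62 ± 0.21, quantile 1.35, adjusted p = 0.016 and 1.8e-04), opposite in sign to that of FOSL1.

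MYC, a driver of growth and ribosome production, read 75.0, 106 and 108 in E and 30.1, 33.3 and 39.8 in DTE (-1.48 ± 0.17, quantile -0.40, adjusted p = 6.4e-08 and 0.016). Its E arrays were already under the DMSO arrays, at 261, 277 and 198, and the DT arrays, at 47.8, 36.0 and 39.5, lay beside the DTE arrays. The fall on top of entinostat was smaller than the one without it (-2.57 ± 0.17, quantile -2.18), with an interaction of 1.10 ± 0.24, quantile 1.78 (adjusted p = 8.6e-04 and 7.4e-05). Another set of these factors kept more of its intensity than most genes. ETS1, FOS, FOSL2, JUN, JUNB and ATF3 were each higher in DTE after quantile normalization, at 0.52, 0.40, 0.71, 0.58, 0.49 and 0.72. Their deposited differences were -0.69 ± 0.16, -0.63 ± 0.17, -0.46 ± 0.15, -0.58 ± 0.14, -0.65 ± 0.17 and -0.21 ± 0.21 in the same order.

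Of the other transcripts listed as dependent on ERK, 17 of 25 fell, beside 9.99% of all genes, with a median of -1.47 (quantile -0.39). Since the list was written with earlier results of these data known, its count is a description only. RGS1, a brake on G protein signalling, read 94.4, 131 and 155 in E and was not well above the estimated background in DTE (at least 10.8-fold lower, and at least 6.87-fold after quantile normalization). Its interaction was below 0 (-1.83 ± 0.29, quantile -1.38, adjusted p = 7.0e-05 and 0.015). NPPC, which encodes C-type natriuretic peptide, read 86.5, 156 and 118 in E and 14.5, 13.7 and 17.7 in DTE (-2.95 ± 0.18, quantile -2.21). The ephrin receptor gene EPHA2 read 270.2, 301 and 314 in E and 50.4, 50.9 and 53.8 in DTE (-2.51 ± 0.14, quantile -1.38). Cyclin D1, CCND1, which opens the cell cycle, read 479.9, 597 and 629 in E and 133, 145 and 163 in DTE (-1.94 ± 0.14, quantile -0.80). In these 4 genes every DTE array lay below every E array in deposited values, as it did in 79.0% of all genes.

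Large falls outside these lists were those of the zinc finger gene ZNF114 (-3.91 ± 0.16, quantile -2.96), MYEOV (-2.96 ± 0.13, quantile -1.91), the orphan receptor gene GPR3 (-2.93 ± 0.17, quantile -1.98), the non-coding LINC02946 (-2.76 ± 0.23, quantile -1.96) and RLBP1, which encodes a retinaldehyde-binding protein (-2.66 ± 0.18, quantile -1.60). The components of the pathway itself were called in both directions after quantile normalization. Of these, 3 of 16 fell, namely MAP2K1, ARAF and GAB2, beside 9.99% of all genes. After quantile normalization 4 of 16 were higher, beside 10.1% of all genes, namely the exchange factors SOS1 (-0.63 ± 0.15, quantile 0.58) and SOS2 (-0.64 ± 0.16, quantile 0.43), the scaffold KSR1 (-0.73 ± 0.14, quantile 0.45) and the adaptor GAB1 (-0.83 ± 0.16, quantile 0.33). The median was -0.97 (quantile 0.02). MAP2K1, which encodes the trametinib target MEK1, read 237, 255 and 276 in E and 76.8, 86.6 and 102 in DTE (-1.54 ± 0.14, quantile -0.36).

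**Figure D2:**
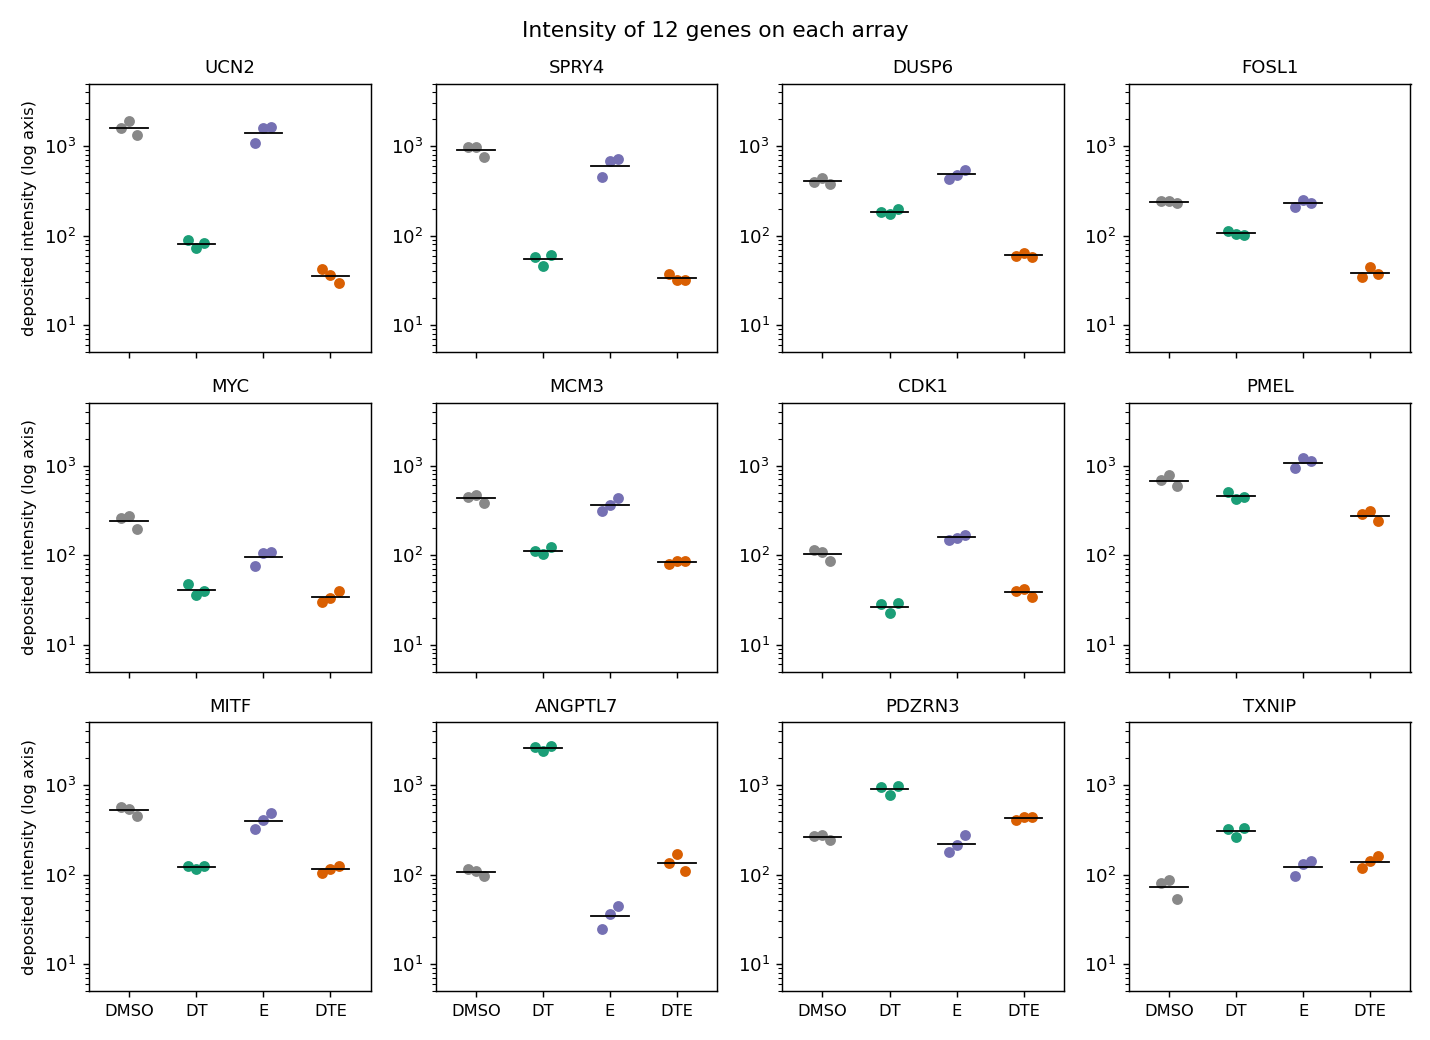
Deposited intensity (log axis) of 12 genes on each of the 12 arrays, with points for single arrays and bars for the geometric mean of an arm (n = 3). UCN2, SPRY4, DUSP6, FOSL1, MYC, MCM3, CDK1, PMEL and MITF are lower on every DTE array than on every E array, as are 79.0% of all genes. ANGPTL7 and PDZRN3 are higher on every DTE array, as are 0.521% of all genes, and TXNIP overlaps between E and DTE.

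Cell cycle genes fell broadly. Of the DNA replication genes 17 of 19 fell, beside 9.99% of all genes, with a median of -1.93 (quantile -0.77). MCM3, a subunit of the helicase that unwinds replication origins, read 315, 364 and 429.9 in E and 79.3, 86.3 and 86.3 in DTE (-2.13 ± 0.14, quantile -0.96, adjusted p = 5.5e-11 and 2.2e-06). GINS2, part of the same helicase complex (-2.44 ± 0.15, quantile -1.38), the flap nuclease FEN1 (-2.20 ± 0.14, quantile -1.06), the helicase loader CDC6 (-2.10 ± 0.14, quantile -1.01) and thymidylate synthase, TYMS (-2.01 ± 0.13, quantile -0.95), fell with it.

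In the mitosis list 25 of 27 fell, beside 9.99% of all genes, with a median of -1.80 (quantile -0.68). CDK1, the kinase that starts mitosis, read 149, 154 and 169.8 in E and 39.6, 42.2 and 33.7 in DTE (-2.04 ± 0.15, quantile -0.92, adjusted p = 1.5e-10 and 2.2e-04). The spindle checkpoint gene MAD2L1 (-2.57 ± 0.14, quantile -1.52), the kinetochore gene NDC80 (-2.30 ± 0.14, quantile -1.21), cyclin B1, CCNB1 (-2.05 ± 0.13, quantile -0.92), and the kinase gene AURKB (-1.89 ± 0.13, quantile -0.74) fell as well. Of the genes of G1 to S control 14 of 18 fell, beside 9.99% of all genes, with a median of -1.57 (quantile -0.58). They included the transcription factors E2F7 (-2.32 ± 0.14, quantile -1.18) and E2F1 (-2.11 ± 0.16, quantile -0.95) and the kinase CDK2 (-2.27 ± 0.15, quantile -1.12). Cyclin E1, CCNE1, did not pass after quantile normalization (-1.15 ± 0.14, quantile 0.04, adjusted p = 2.1e-07 and 0.78).

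The promoters of MCM3 and CDK1 are shown because they hold the motifs known from these lists. E2F factors bind the first, searched as TTTGGCGC, TTTCCCGC or TTTCGCGC. The cell cycle homology region (CHR), searched as TTTGAA, is known from mitotic genes, and forkhead factors bind the third, searched as TGTTTAC, all on both strands. The stretches are from RefSeq (GRCh38.p14), MCM3 from chr6:52284713-52284992, minus strand, and CDK1 from chr10:60778081-60778360, plus strand, with every match in capitals.
MCM3: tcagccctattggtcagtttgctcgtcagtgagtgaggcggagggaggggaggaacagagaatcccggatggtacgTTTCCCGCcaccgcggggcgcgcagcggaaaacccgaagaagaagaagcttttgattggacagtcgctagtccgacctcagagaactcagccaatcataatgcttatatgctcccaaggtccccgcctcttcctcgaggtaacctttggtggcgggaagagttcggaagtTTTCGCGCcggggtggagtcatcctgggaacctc
CDK1: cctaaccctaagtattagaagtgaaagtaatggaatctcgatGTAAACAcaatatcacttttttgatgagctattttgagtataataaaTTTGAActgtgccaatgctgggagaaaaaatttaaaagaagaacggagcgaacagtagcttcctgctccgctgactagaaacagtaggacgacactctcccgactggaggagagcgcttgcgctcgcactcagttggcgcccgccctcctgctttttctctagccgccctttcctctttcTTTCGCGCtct
MCM3 holds E2F matches at positions -174 and -4, and CDK1 holds a forkhead match at -208, a CHR match at -161 and an E2F match at 19. An E2F match stood in 11 of 16 promoters found (68.8%) for the replication list, in 6 of 13 promoters found (46.2%) for the G1 to S list and in 3.72% of the promoters of all genes tested. A CHR match stood in 14 of 23 promoters found (60.9%) for the mitosis list and in 11.8% of all. These lists hold known targets of such factors, so the list shares describe the lists and not the treatment. Among the promoters found for genes that fell, 8.1% held an E2F match and 15.8% a CHR match. The genes that fell include members of these lists, and a part of the motifs in the falls was not tested.

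Repair and ribosome genes moved with them. Of the homologous recombination and Fanconi anaemia genes 11 of 14 fell, beside 9.99% of all genes, with a median of -1.74 (quantile -0.61). Among them were the exonuclease gene EXO1 (-2.24 ± 0.15, quantile -1.23) and the repair gene XRCC2 (-2.22 ± 0.16, quantile -1.07). Of the end-joining genes 2 of 6 fell, beside 9.99% of all genes. They were the nuclease gene DCLRE1C (-1.96 ± 0.17, quantile -1.02) and the ligase partner XRCC4 (-1.51 ± 0.13, quantile -0.33). Both had an interaction below 0, with adjusted p = 3.7e-04 and 0.02 for DCLRE1C and adjusted p = 9.2e-06 and 0.022 for XRCC4. Of the ribosome biogenesis genes 18 of 22 fell, beside 9.99% of all genes, with a median of -1.51 (quantile -0.42). They included LYAR (-2.17 ± 0.14, quantile -1.02), BOP1 (-1.83 ± 0.14, quantile -0.66), MRTO4 (-1.78 ± 0.14, quantile -0.64) and NOB1 (-1.61 ± 0.14, quantile -0.46). The E-box CACGTG, which MYC and its partner bind, stood in 7 of 15 promoters found (46.7%) for that list and in 9.02% of all. Among genes that fell the share was 11.6%. The share of 46.7% describes the list and not the treatment.

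**Figure D3:**
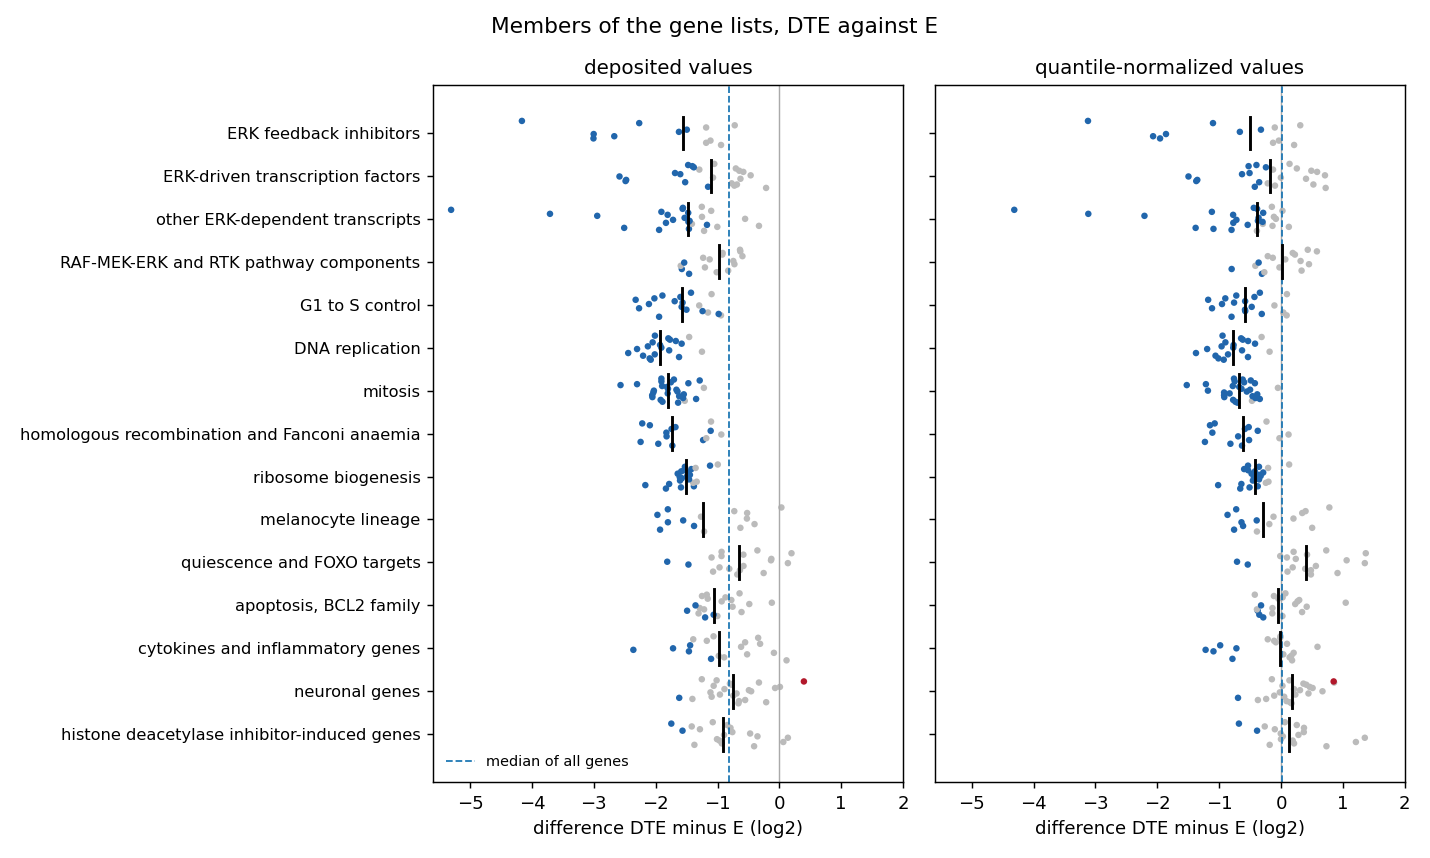
Log2 difference of DTE over E for each measured member of 15 gene lists, in deposited values and after quantile normalization. Points are genes, blue where the gene fell and red where it rose in both scalings, and black bars are list medians, which are below the dashed median of all genes (-0.82 and 0.01) for the replication, mitosis and G1 to S lists and above it for the quiescence list.

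Pigment cell genes split. PMEL, which builds the fibrils of the melanosome, read 944, 1202 and 1120 in E and 288, 308 and 238 in DTE (-1.97 ± 0.15, quantile -0.87, adjusted p = 2.4e-10 and 2.1e-04). Without entinostat it was called lower in deposited values only (-0.56 ± 0.15, quantile -0.15, adjusted p = 0.0057 and 0.38), and the interaction was below 0 (-1.41 ± 0.21, quantile -0.71, adjusted p = 4.3e-05 and 0.031). The endothelin receptor gene EDNRB read 268, 324 and 369 in E and 83.2, 92.8 and 75.1 in DTE (-1.93 ± 0.14, quantile -0.76), with an interaction of -1.80 ± 0.20, quantile -0.97 (adjusted p = 2.1e-06 and 0.0016). The DMSO and DT means of EDNRB, 301 and 276, lay within the range of its E arrays.

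MITF, the main regulator of the lineage, read 319.7, 403 and 488 in E and 104, 114 and 124 in DTE (-1.80 ± 0.15, quantile -0.64, adjusted p = 1.1e-09 and 1.2e-04). Its DT arrays, at 126, 116 and 124, lay close to the DTE arrays. Tyrosinase, TYR, which starts melanin synthesis, read 670.1, 846 and 962 in E and 240.2, 284 and 188 in DTE (-1.80 ± 0.16, quantile -0.72, adjusted p = 2.7e-09 and 0.0024). With GPR143 (-1.38 ± 0.18, quantile -0.61) and MLANA (-1.56 ± 0.15, quantile -0.39), 6 of 14 lineage genes fell, beside 9.99% of all genes. SOX10 (-0.73 ± 0.16, quantile 0.40), ERBB3 (-0.63 ± 0.14, quantile 0.50), S100B (-0.52 ± 0.15, quantile 0.34) and TYRP1 (0.03 ± 0.14, quantile 0.78) were higher in DTE after quantile normalization and not in deposited values, where TYRP1 differed little and the other 3 were lower. Among the measured genes of this list 1, KIT, was not well above background in either arm.

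The TYR promoter is shown for its M-box, the motif through which MITF binds pigment genes, searched as TCATGTG on both strands. The stretch is from RefSeq (GRCh38.p14, chr11:89177625-89177904, plus strand), with the match in capitals at position -105.
TYR: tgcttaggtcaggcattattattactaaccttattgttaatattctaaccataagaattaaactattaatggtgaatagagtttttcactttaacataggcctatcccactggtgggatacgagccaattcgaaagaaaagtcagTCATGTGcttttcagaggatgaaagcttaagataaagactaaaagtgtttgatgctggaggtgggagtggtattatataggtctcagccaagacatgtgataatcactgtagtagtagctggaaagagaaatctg
A match stood in 4 of 10 promoters found (40%) for the lineage list and in 2.05% of all. Among genes that fell the share was 1.77%. The share of 40% describes the list and not the treatment.

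The genes that rose by the double rule were few and mostly dim. The deposited shift, -0.06 in the dimmest bin and -1.15 in bins 8 and 9, made a rise harder to call in brighter genes. The rule kept 32 of the 1466 genes higher after quantile normalization and all 1457 that were lower. The small count and the dimness therefore follow in part from that shift. Of the 32, 15 were not well above the estimated background in either arm and 8 were above it in both. By type, 18 encode proteins, 7 are microRNA genes and 7 are long non-coding RNAs or pseudogenes. In 7 of them the brighter arm was above the median gene.

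ANGPTL7, a secreted angiopoietin-like protein, was the largest of these. It read 24.8, 36.2 and 44.8 in E and 133, 170.0 and 111 in DTE, a 3.97-fold rise (1.99 ± 0.18, quantile 3.13, adjusted p = 3.0e-09 and 6.1e-08). The DTE arrays lay near the DMSO arrays, at 114, 109.7 and 96.3, and far under the DT arrays, at 2653, 2404 and 2747. The rise on top of entinostat was smaller than without it (interaction -2.62 ± 0.26, quantile -1.83, adjusted p = 4.3e-07 and 4.0e-04).

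PDZRN3, which encodes a ubiquitin ligase, read 179, 213 and 277 in E and 409, 434 and 442 in DTE (0.96 ± 0.15, quantile 2.08, adjusted p = 4.6e-06 and 2.8e-08). Its interaction was -0.81 ± 0.21, quantile -0.05 (adjusted p = 0.0032 and 0.89), called in deposited values only. The klotho relative LCTL read 35.5, 32.8 and 32.3 in E and 57.9, 53.6 and 60.1 in DTE (0.77 ± 0.13, quantile 1.87), with an interaction of -2.05 ± 0.18, quantile -1.23 (adjusted p = 1.4e-07 and 0.0013). PRUNE2 (0.67 ± 0.16, quantile 1.68), JAKMIP2 (0.56 ± 0.14, quantile 1.69), the matricellular protein gene CCN3 (0.38 ± 0.13, quantile 1.46) and the filaggrin gene FLG (0.37 ± 0.16, quantile 1.52) completed the brighter set. FLG lost its deposited call without E replicate 1 or 2 or without DTE replicate 1 or 3, at 0.24 to 0.38, and CCN3 lost it without DTE replicate 2, at 0.32. All 7 had also risen in DT against DMSO.

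A larger set held its intensity while most genes dimmed. TXNIP, a brake on glucose uptake, read 95.2, 131 and 142 in E and 117, 141 and 161 in DTE. The arms overlapped, and TXNIP was higher only relative to other genes (0.20 ± 0.18, quantile 1.37, adjusted p = 0.33 and 3.0e-06). Its interaction was below 0 (-1.86 ± 0.26, quantile -0.96, adjusted p = 2.3e-05 and 0.0029). KLF9 (0.14 ± 0.16, quantile 1.35), OLFML2A (0.12 ± 0.13, quantile 1.33), TCP11L2 (0.16 ± 0.15, quantile 1.32) and the transcription factor gene ZEB2 (0.11 ± 0.15, quantile 1.31) also overlapped between the arms and were higher after quantile normalization. In the list of quiescence genes and FOXO targets 10 of 18 were higher after quantile normalization, beside 10.1% of all genes, with a median of -0.66 (quantile 0.41). MXD4, an antagonist of MYC (-0.14 ± 0.14, quantile 1.06), and the cyclin gene CCNG2 (-0.25 ± 0.15, quantile 0.91) were among them. LMNB1 (-1.81 ± 0.16, quantile -0.71) and KLF2 (-1.47 ± 0.15, quantile -0.54) fell.

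The TXNIP promoter is shown for a match to the forkhead motif, of the kind that FOXO factors bind. The stretch is from RefSeq (GRCh38.p14, chr1:145996550-145996829, minus strand), with the match, which reads TGTTTAC on the other strand, in capitals at position -124.
TXNIP: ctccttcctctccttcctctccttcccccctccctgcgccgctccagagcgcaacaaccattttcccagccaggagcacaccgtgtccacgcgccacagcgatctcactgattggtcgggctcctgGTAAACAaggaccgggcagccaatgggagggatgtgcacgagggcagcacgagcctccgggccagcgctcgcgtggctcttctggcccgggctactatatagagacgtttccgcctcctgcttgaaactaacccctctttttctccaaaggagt
A forkhead match stood in 3 of 18 promoters found (16.7%) for the quiescence list and in 2.61% of all. The first share describes the list and not the treatment.

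Cell death genes moved unevenly. BMF, a pro-apoptotic member of the BCL2 family, read 42.9, 62.1 and 66.5 in E and 49.7, 50.6 and 54.6 in DTE, overlapping between the arms (-0.12 ± 0.17, quantile 1.05, adjusted p = 0.53 and 1.8e-05). BCL2L11, which encodes the pro-apoptotic BIM, read 178, 203 and 229 in E and 104, 132 and 126 in DTE, lower in deposited values and higher after quantile normalization (-0.76 ± 0.15, quantile 0.42, adjusted p = 1.0e-04 and 0.0022). Of the whole list 4 of 19 fell, namely BCL2 (-1.49 ± 0.15, quantile -0.38), BID, BAK1 and APAF1, beside 9.99% of all genes. After quantile normalization 4 of 19 were higher, BMF, BCL2L11, BNIP3 and BNIP3L, beside 10.1% of all. The survival genes MCL1 (-1.25 ± 0.14, quantile -0.12) and BCL2L1 (-1.29 ± 0.15, quantile -0.14) did not pass after quantile normalization.

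Of the cytokine and inflammatory genes 5 of 17 fell, beside 9.99% of all genes. The adhesion molecule gene ICAM1 read 468, 662 and 782 in E and 119.8, 134 and 111 in DTE (-2.36 ± 0.16, quantile -1.22, adjusted p = 6.7e-11 and 1.4e-05). The cytokine gene IL11 read 64.9, 106 and 101 in E and 28.1, 25.8 and 26.7 in DTE (-1.72 ± 0.16, quantile -0.72, adjusted p = 4.9e-09 and 0.0023). Its DMSO and DT means were 37.4 and 35.4, and its interaction was below 0 (-1.63 ± 0.23, quantile -0.83, adjusted p = 2.6e-05 and 0.029). CXCL8, CCL20 and IL24 were not well above background in DTE.

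Of the genes listed as induced by deacetylase inhibitors, 2 of 18 fell, beside 9.99% of all genes. After quantile normalization 6 of 18 were higher, beside 10.1% of all. TMSB15A, a thymosin gene, read 1182, 1225 and 1165 in E and 341, 415 and 314 in DTE (-1.75 ± 0.15, quantile -0.68), against DMSO and DT means of 113 and 102, with an interaction of -1.60 ± 0.21, quantile -0.88 (adjusted p = 1.3e-05 and 0.022). The metallothionein gene MT2A fell too (-1.57 ± 0.15, quantile -0.39), and STC1 (-1.42 ± 0.17, quantile -0.26), TSPAN13 (-1.08 ± 0.16, quantile 0.06) and CSF1R (-1.37 ± 0.16, quantile -0.18) did not pass after quantile normalization. Of the neuronal genes 1 of 23 fell, DPYSL5 (-1.62 ± 0.16, quantile -0.70), beside 9.99% of all genes. SYT4 rose from a level not well above background in E (0.40 ± 0.17, quantile 0.85). After quantile normalization 6 of 23 were higher, beside 10.1% of all, among them SYT1 (-0.33 ± 0.14, quantile 0.86), PCDH10 (-0.46 ± 0.15, quantile 0.67) and MAP2 (-0.69 ± 0.15, quantile 0.44). The class I deacetylase genes HDAC1 (-1.30 ± 0.15, quantile -0.11), HDAC2 (-1.07 ± 0.16, quantile -0.001) and HDAC3 (-1.11 ± 0.14, quantile 0.07) did not pass after quantile normalization.

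Other lists are given by their counts, to be read beside 9.99% of all genes that fell and 10.1% that were higher after quantile normalization. Among sterol synthesis genes 5 of 14 fell, and among translation genes 5 of 18 fell and 1 of 18 were higher after quantile normalization. In the lysosome and autophagy list 6 of 27 fell and 5 of 27 were higher, with a median of -0.95 (quantile 0.13). For p53 targets the counts were 3 of 12 and 2 of 12, for receptor tyrosine kinases 3 of 21 and 3 of 21, and for YAP-TEAD targets 1 of 14 and 5 of 14. Of the markers of other cell types, 1 of 5 endothelial ones fell, the receptor gene KDR. The summed intensity of those 5 was 278 to 383 in E and 107 to 117 in DTE. For 4 immune markers it was 304 to 388 and 160.3 to 171, for 3 fibroblast markers 58.8 to 64.7 and 34.5 to 43.3, and for 7 keratinocyte markers 93.9 to 109.5 and 75.8 to 82.5, and their part in the results was not tested.

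The comparison of DT with DMSO shares no array with that of DTE with E. In it 2067 genes fell (14.2%) and 680 rose (4.66%) in both scalings. Of the 1457 genes that fell on top of entinostat, 1055 (72.41%) also fell without it, which is 51.04% of the latter, and 398 were called there in neither direction by the double rule. Of the 32 that rose, 18 (56.25%) also rose without it, which is 2.65% of the 680. After quantile normalization alone, 410 of the 680 (60.29%) were higher in DTE than in E. Across genes, which are not independent replicates, both quantile-normalized differences had a Pearson correlation of 0.70.

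**Figure D4:**
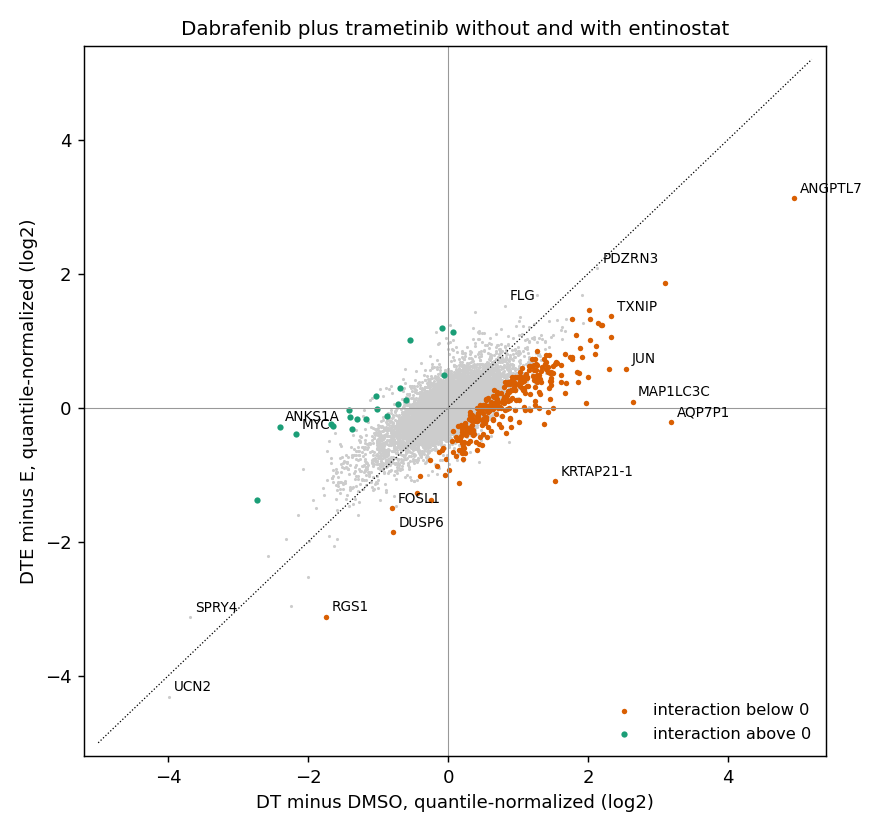
Quantile-normalized log2 difference of DTE over E against that of DT over DMSO for 14582 genes (points), with the line of equal change dotted. Orange and green mark the 309 genes whose interaction was called below 0 and the 20 called above 0 in both scalings.

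The interaction was called below 0 in both scalings for 309 genes (2.12%) and above 0 for 20 (0.137%). Deposited values alone gave 9117 below (62.5%) and 30 above (0.206%), with a median of -0.63 over all genes. Quantile-normalized values alone gave 309 below (2.12%) and 304 above (2.08%). The double rule thus kept all 309 below 0 and 20 of the 304 above 0. The small count above 0 follows in part from the deposited median of -0.63. The count of 20 above 0 became 12 without E replicate 2 and 13 without DMSO replicate 1, DTE replicate 2 or DTE replicate 3.

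Of the 309 genes with an interaction below 0, 186 had risen in DT against DMSO, beside 4.66% of all genes. The interaction subtracts that same difference of DT and DMSO, so a gene that rose there tends towards a value below 0 by construction. On top of entinostat 4 of these 186 rose, ANGPTL7, LCTL, CCN3 and the dim LOC729080, and 4 fell, ANXA1, KRTAP21-1, PRICKLE2-AS3 and TRIM49B. Of the other 178, 102 were higher and 76 were not called after quantile normalization. The aquaporin pseudogene AQP7P1 read 342, 281 and 305 in DT but 20.3, 21.3 and 24.3 in DTE, beside 41.5, 45.1 and 54.2 in E (interaction -4.13 ± 0.24, quantile -3.39, adjusted p = 1.0e-10 and 2.1e-07). Whether transcripts of related aquaporin genes bind its probes was not tested.

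JUN, an AP-1 subunit, read 564, 483 and 521 in DT but 147, 159 and 139 in DTE, beside 239, 223 and 205 in E (interaction -2.78 ± 0.19, quantile -1.97, adjusted p = 2.3e-09 and 1.4e-04). The autophagy gene MAP1LC3C had a mean of 135 in DT but 13.8 in DTE, beside 19.0 in E (interaction -3.03 ± 0.20, quantile -2.55). The keratin-associated gene KRTAP21-1 rose without entinostat (1.27 ± 0.17, quantile 1.53) and fell on top of it (-1.97 ± 0.17, quantile -1.10), with an interaction of -3.24 ± 0.24, quantile -2.63 (adjusted p = 4.6e-09 and 1.2e-04). The formin family gene FHDC1 had an interaction of -2.51 ± 0.22, quantile -1.54 (adjusted p = 1.4e-07 and 9.9e-05). In these 5 genes, AQP7P1 included, every DTE array lay below every E array in deposited values, as it did in 79.0% of all genes. JUN and FHDC1 were higher in DTE after quantile normalization.

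A further view is of genes that fell on top of entinostat more than without it. There were 64, of which 54 were not called by the double rule in DT against DMSO. Over all genes 14.2% fell and 4.66% rose in that comparison, so most genes were not called there. The 64 were picked by a fall that the interaction also holds. A small change in DT against DMSO is therefore partly built in. Besides PMEL, EDNRB, IL11, TMSB15A and XRCC4 the 64 included the secreted phosphoprotein gene SPP1 (-1.64 ± 0.16, quantile -0.50), EMP1 (-1.79 ± 0.14, quantile -0.62) and the microRNA gene MIR221 (-1.82 ± 0.15, quantile -0.66). SPP1 had a mean of 585 in E against 185 in DTE, and of 124 with vehicle against 121 in DT.

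The opposite pattern, a fall with an interaction above 0, was found by the double rule in 4 genes, ANKS1A, MYC, ETV4 and LONRF2. They come from the 20 genes called above 0 in both scalings, of 304 after quantile normalization alone. ANKS1A, an adaptor of ephrin receptor signalling, read 169, 247 and 278 in E and 77.7, 79.2 and 90.3 in DTE, beside 931, 927 and 775 with vehicle and 135, 118 and 136 in DT. It was lower in E than in DMSO and lowest in DTE (interaction 1.30 ± 0.23, quantile 2.12, adjusted p = 1.7e-04 and 3.0e-06). PRR7-AS1 (0.96 ± 0.23, quantile 1.43), SLCO4A1-AS1 (0.75 ± 0.25, quantile 1.38), LPXN (0.69 ± 0.22, quantile 1.39) and TM4SF1 (0.65 ± 0.18, quantile 1.12) also had an interaction above 0, but DTE against E was called for them in deposited values only.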

How the data were processed

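Expression was measured on 12 arrays, 3 per arm. The deposited values are linear intensity per probe set, which the authors made with RMA and the Transcriptome Analysis Console according to the submitters' processing notes. Scaling between arrays and genome build are not given in the sources used here. The deposited arrays do not share 1 distribution. The median intensity was 39.4, 47.4 and 51.6 on the E arrays and 22.9, 24.4 and 25.1 on the DTE arrays. Log2 was taken with no pseudocount and no filter. Of 29398 probe sets, 14750 (50.2%) had 1 gene in a probe table, and the probe set with the highest mean stood for each of 14582 genes.

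All 12 arrays entered 1 linear model with a mean per arm (limma 3.58.1, R 4.3.3), with Benjamini-Hochberg adjustment over all genes at 0.05, in deposited and in quantile-normalized values. Tested on simulated data for DTE against E over 14582 genes, it called 33.3%, 89.6% and 100% of log2 changes of 0.5, 1 and 2, with 6 false calls. Only 66, 67 and 67 genes were changed by those sizes there, while 78.5% of genes were called lower in the deposited values. The rates may therefore not hold for these data. The estimated background of an array is the 95th percentile of its dimmest 25% of genes (11.1 to 16.2), and a bound uses it in place of the dim arm. That rule was set with values in view.

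Named are the 12 largest falls and up to 12 rises called in both scalings, above the median gene and without overlap (7 rises qualified), 6 interactions each way, up to 4 members of each described list by adjusted p, and fixed genes. The 12 largest quantile rises, up to 3 quantile-higher members of a list, and the remaining names were chosen after their values were seen. Members, lists and tests were chosen with earlier results of these data known. Alternatives were other scalings, a replicate block, a fit of only the arms compared, other variance settings, array weights, a filter on dim genes, probe set means and leaving out each array. Histone genes and the 14648 unnamed probe sets were not analysed here by gene.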

Additional observations from a re-analysis of the deposited data

Results flagged for a closer look

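The response to dabrafenib plus trametinib differed between cells with and without entinostat for a set of the named genes, by the interaction term of limma's fit in both scalings. In deposited log2 values the interaction was above 0 for ANKS1A (1.30), MYC (1.10), PRR7-AS1 (0.96), SLCO4A1-AS1 (0.75), LPXN (0.69), TM4SF1 (0.65) and ETV4 (0.62). It was below 0 for AQP7P1 (-4.13), KRTAP21-1 (-3.24), MAP1LC3C (-3.03), JUN (-2.78), ANGPTL7 (-2.62), FHDC1 (-2.51), LCTL (-2.05), DUSP6 (-1.89), TXNIP (-1.86), RGS1 (-1.83), EDNRB (-1.80), OLFML2A (-1.72), IL11 (-1.63), TMSB15A (-1.60), MAP2 (-1.50), TCP11L2 (-1.46), FOSL1 (-1.41), PMEL (-1.41) and CCN3 (-1.31). The median deposited interaction over all genes was -0.63, which is the shift these values stand against.

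Probe sets that were not named for a gene were compared as well. Of 14648 such probe sets, 856 were lower and 62 were higher in DTE than in E in both scalings. Among the 14582 named genes 1457 were lower and 32 higher at the same threshold. Lower calls were thus less frequent and higher calls more frequent among the unnamed probe sets. The unnamed probe sets were normalized and adjusted together with the named genes, and the named genes on their own.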

How the results depend on the processing

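The scaling between arrays decided the counts. Genes higher and lower in DTE than in E numbered 36 and 11453 in deposited values, 1466 and 1457 after quantile normalization, 5274 and 2812 after median centring and 7427 and 1449 after centring on the genes above the median gene. Interactions above and below 0 numbered 30 and 9117, 304 and 309, 1872 and 668 and 2492 and 524 in the same order. Array weights, whose estimation did not reach its tolerance, gave 304 higher genes and 151 interactions above 0, and 82 and 33 in both scalings. With only genes above the median gene, 7 were higher and 12 interactions were above 0 (7 and 12 in both scalings), and 487 were below 0 in both. Leaving out 1 array gave 30 to 39 higher and 10768 to 11688 lower genes (27 to 32 and 1132 to 1277 in both scalings), and 19 to 37 and 7685 to 10180 interactions (12 to 27 and 218 to 269 in both). The level difference was -1.22 to -1.03 without 1 array and -0.78 over all genes.

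Deviations of DTE and E arrays with the same replicate number correlated at 0.126, 0.071 and 0.112 in deposited values. Those with other numbers correlated at -0.117 to -0.004, lower in every case. After quantile normalization the values were 0.011, 0.053 and 0.068 beside -0.067 to 0.021, which overlap. The main fit did not take the numbers as pairs, so a fit with them as a block is given beside it. The replicate number as a block gave 31 and 11362 genes and 25 and 8713 interactions in deposited values, 1432 and 1423 and 270 and 294 after quantile normalization, and 29 and 1423 and 17 and 294 in both scalings. It left the deposited call of all 125 named genes as it was.

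The sign of single genes changed under other scalings. After quantile normalization these were MAP1LC3C 0.093, JUN 0.58, FHDC1 0.47, PEA15 0.31, FOSL2 0.71, ETS1 0.52, JUNB 0.49, SOS1 0.58, KSR1 0.45, SOS2 0.43, ERBB3 0.50, SOX10 0.40, MXD4 1.06, BMF 1.05, BCL2L11 0.42, BNIP3L 0.29, IL18 0.59, SYT1 0.86, PCDH10 0.67, MAP2 0.44, CLU 0.73, RBL2 0.10, FOXO1 0.11, GAP43 0.051, UCHL1 0.14, CCNE1 0.038, CCNG2 0.91, TSPAN13 0.063, KIF5C 0.23, SYN1 0.41, HDAC3 0.066 and MAP2K2 0.32. After median centring they were MAP1LC3C 0.47, JUN 0.35, FHDC1 0.35, PEA15 0.21, FOSL2 0.46, ETS1 0.24, JUNB 0.28, SOS1 0.30, KSR1 0.20, SOS2 0.29, ERBB3 0.30, SOX10 0.20, MXD4 0.79, BMF 0.81, BCL2L11 0.17, BNIP3L 0.15, IL18 0.31, SYT1 0.60, PCDH10 0.47, MAP2 0.24, CLU 0.52, CCNG2 0.67, SYN1 0.16 and MAP2K2 0.18. After centring on the genes above the median gene they were PRR7-AS1 0.019, LPXN 0.007, TM4SF1 0.16, AQP7P1 0.031, MAP1LC3C 0.66, JUN 0.54, FHDC1 0.54, PEA15 0.40, FOSL2 0.66, ETS1 0.44, JUNB 0.47, SOS1 0.49, KSR1 0.40, SOS2 0.49, ERBB3 0.49, SOX10 0.39, MXD4 0.99, BMF 1.00, BCL2L11 0.37, BNIP3L 0.35, IL18 0.50, SYT1 0.79, PCDH10 0.67, MAP2 0.43, CLU 0.71, RBL2 0.025, FOXO1 0.050, GAP43 0.026, UCHL1 0.11, CCNG2 0.87, TSPAN13 0.044, KIF5C 0.16, SYN1 0.35, HDAC2 0.051, HDAC3 0.009 and MAP2K2 0.38. Without 1 array, deposited differences near 0 changed sign for KLF9 (-0.053 to 0.287), TYRP1 (-0.037 to 0.158) and GSTA2 (-0.083 to 0.251). Signal near background limits the dim genes, and the unknown scaling limits every absolute difference.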
